A study of Mus musculus with 8 samples.

Results

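The Rab genes of mouse C2C12 myoblasts were compared between cells with and without an shRNA against Atad2. Members were the genes whose symbol in the deposited table is Rab followed by a number and at most a letter and a digit, a rule that used no measured value. It found 59 of the 35976 genes in the table, and each had a RefSeq entry on GRCm38 under its symbol. Rab-like genes and genes named for proteins that bind a Rab fell outside the rule.

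Rab proteins are small GTPases that mark the membranes of the secretory and endocytic pathways. Each switches between a GDP-bound form, kept soluble by GDI, and a GTP-bound form on a membrane, where it recruits effectors such as tethers and motor adaptors. Exchange factors (GEFs) turn a Rab on, GTPase-activating proteins (GAPs) turn it off, and a geranylgeranyl transferase attaches the lipids that hold it in the membrane. In muscle cells Rab proteins serve the delivery of the glucose transporter GLUT4 to the surface, and several of them take part in autophagy.

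C2C12 is a line of mouse myoblasts that divide as single cells and can fuse into myotubes. The study held 8 RNA libraries, 4 from cells given a non-targeting shRNA (control) and 4 from cells given an ATAD2 shRNA (Atad2 libraries), all collected 48 h after transfection. ATAD2 is a chromatin ATPase with a bromodomain. The labels do not say how many shRNA sequences or separate cultures were used, so p-values measure the spread between these libraries, which may be technical.

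Depth, counted from reads recovered from the table, was 61.4 to 73.0 Mreads (mega-reads) in the controls and 50.3 to 72.3 Mreads after Atad2 shRNA, and a gene without reads lay under 0.0411 to 0.0596 RPM (3 reads of a library, counting error only). Atad2 itself lay at 14.61 to 14.74 in the controls and 11.77 to 12.05 after Atad2 shRNA on the log2 scale, a difference of -2.73 ± 0.05 (SE). On the second principal component, with 8.29% of the variance, Atad2 replicate 3 was separated from all others.

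Levels below are log2(normalized count + 1), and differences are Atad2 minus control on that scale, with the SE of a limma fit over all 14703 genes with a mean level above 3. Such differences understate the change of weak genes. A gene was called at a Benjamini-Hochberg adjusted p under 0.05. In bulk RNA, fewer cells of a type and less RNA per cell cannot be told apart.

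Of the 59 Rab genes, 50 passed the minimum level, 18 rose, 15 fell and 17 were not called. The share called, 66.0%, lay near that of all genes tested, which was 60.4%, and the shares by direction were 36.0% higher against 30.8% of all genes and 30.0% lower against 29.6%. Values of the groups did not overlap for 29 of the 50, against 53.5% of all genes. The median difference was 0.04 for Rab genes and -0.01 for all genes. The increases were small, the largest being Rab31 at 0.58 ± 0.03, which is 1.49-fold. At a 2-fold change or more, 0 of the 50 were higher and 4 lower (8%: Rab3b, Rab3c, Rab27a and Rab29), where 2.73% of all genes were higher and 9.46% lower. Without Rab3c, which passed the minimum level only through the controls, 14 of 49 fell and 3 were lower by 2-fold or more.

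**Figure D1:**
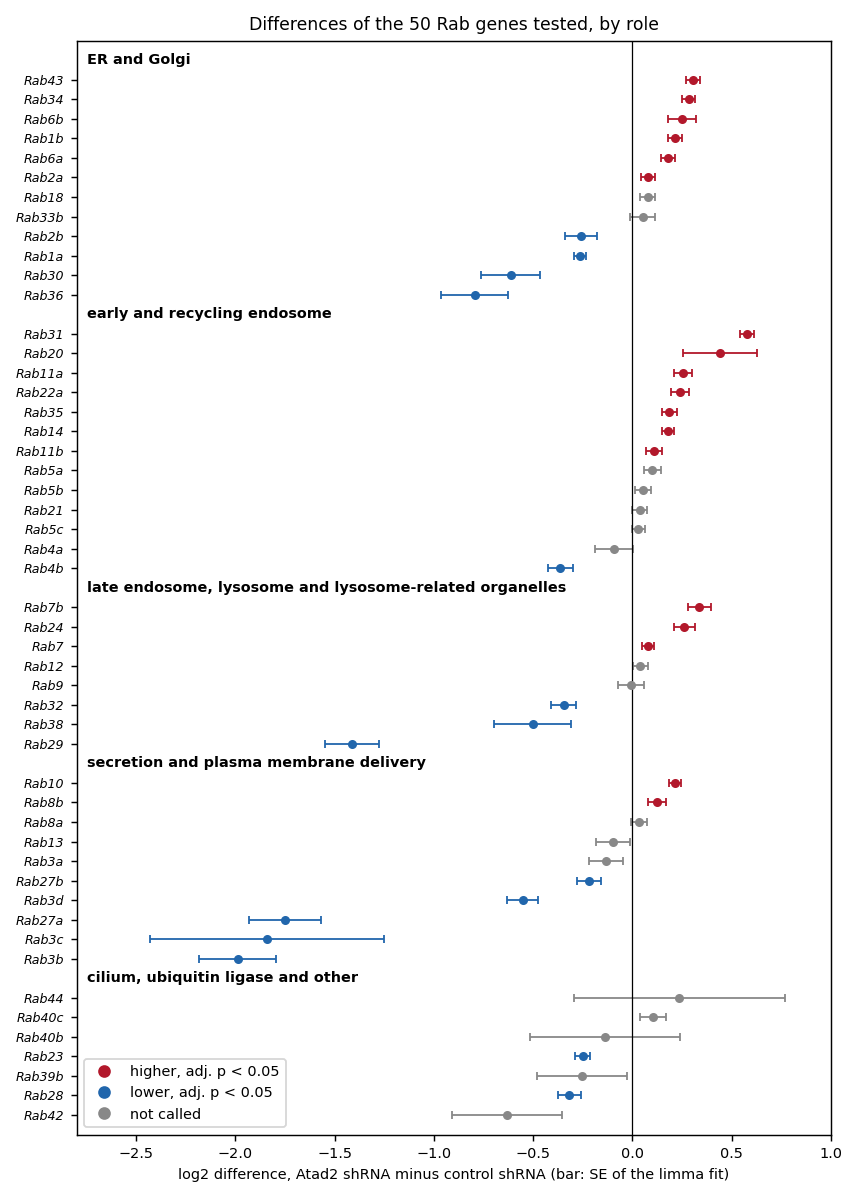
Log2 difference (Atad2 shRNA minus control shRNA, horizontal axis) with the SE of the limma fit for the 50 Rab genes tested, grouped by role on the vertical axis. Red points rose, blue points fell and grey points were not called. The 4 decreases of at least 2-fold, from -1.99 to -1.41, lie in the secretion group and among the lysosome-related Rab genes, and no increase goes beyond 0.58. Of these 4, Rab3c passed the minimum level only through the controls.

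The direction of the calls went with expression level, as it did for all genes. The Atad2 libraries also held fewer genes with a read, 17544 to 17894 against 18845 to 18939 in the controls (exact two-sided permutation p = 0.0286, the smallest possible), at overlapping depth. The part of this difference in the Rab results was not tested. Of 24 Rab genes with a mean level above 11, 15 rose and 2 fell (Rab1a and Rab23). Over all 6169 genes above that level, 49.9% rose and 21.7% fell. Of 26 Rab genes at or below it, 3 rose (Rab6b, Rab20 and Rab24) and 13 fell, where 17.0% of all 8534 genes rose and 35.3% fell. The 13 include Rab3c, which passed the minimum level only through the controls. Whether the Rab shares differ from those of genes of like level was not tested.

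**Figure D2:**
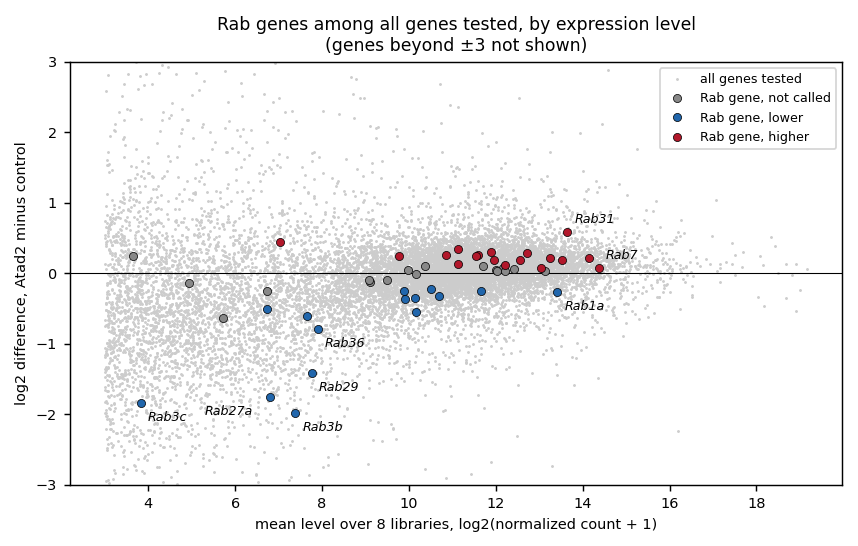
Log2 difference (vertical axis) against the mean level over the 8 libraries (horizontal axis, log2 normalized count + 1) for all genes tested (light grey dots) and the 50 Rab genes (large points, red higher, blue lower, grey not called). Rab genes above a level of 11 lie mostly just above 0, with 15 called higher and 2 lower, while the deepest decreases lie below a level of 8.

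Among the Rab genes of secretion and delivery to the plasma membrane, 5 of 10 tested fell, 2 rose and 3 were not called, where 29.6% of all genes fell and 30.8% rose. Without Rab3c, which passed the minimum level only through the controls, 4 of 9 fell. The 5 that fell (Rab3b, Rab3c, Rab3d, Rab27a and Rab27b) belong to the Rab3 and Rab27 subfamilies, which serve the docking of secretory vesicles and granules. All 5 had a mean level below 11, where 35.3% of all genes fell and 17.0% rose. Rab3b (chromosome 4, 108879070 to 108943324) lay at 8.26, 8.64, 8.24 and 8.36 in the controls and at 6.21, 6.18, 6.08 and 7.07 after Atad2 shRNA. Every Atad2 library was below every control library, although Atad2 replicate 4 was less reduced than the other three. The difference of -1.99 ± 0.19 made Rab3b 3.97-fold lower (limma adjusted p = 2e-08). The Atad2 libraries held 52 to 115 reads of it.

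Rab27a, which docks melanosomes and the lytic granules of immune cells, lies on chromosome 9 from 73044810 to 73097623. Its levels were 7.73, 7.48, 7.83 and 7.68 in the controls and 6.08, 6.09, 5.82 and 5.73 after Atad2 shRNA. The groups were well separated, with a difference of -1.75 ± 0.18, or 3.37-fold (limma adjusted p = 4.4e-08). Its paralog Rab27b, also a secretory Rab, fell far less, from 10.53 to 10.77 in the control libraries to 10.31 to 10.49 (-0.22 ± 0.06, limma adjusted p = 0.005).

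Rab3d, found on granules of secretory cells, lay at 10.46, 10.44, 10.39 and 10.49 in the controls and at 10.02, 9.68, 9.78 and 10.10 after Atad2 shRNA. Without overlap, it fell by 0.55 on the log2 scale (SE 0.08, limma adjusted p = 3.7e-06). Rab3c was near the detection limit, with 21 to 36 reads in each control and 1 to 13 after Atad2 shRNA (-1.84 ± 0.59, limma adjusted p = 0.011). Its levels were 5.04, 4.59, 4.36 and 4.98 against 0.94, 2.75, 3.92 and 4.00, and its call was lost with quantile (adjusted p = 0.0634) and cyclic loess normalization (0.0736). Rab3a, the Rab of synaptic vesicles, stood at 9.17 ± 0.12 and 9.04 ± 0.04 and was not called (-0.13 ± 0.09).

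In the same role group, Rab10, which carries GLUT4 vesicles to the surface, rose from 14.01, 14.09, 14.02 and 14.05 to 14.27, 14.24, 14.30 and 14.23. This was a 1.16-fold difference without overlap (0.21 ± 0.03, limma adjusted p = 3.3e-06), in the gene with the second highest level per kilobase among the Rab genes. Rab8b, of post-Golgi transport, rose by 0.12 ± 0.04. The Rab8b call was lost without control replicate 3 (limma adjusted p = 0.0588), control replicate 4 (0.0538) or Atad2 replicate 1 (0.0589), and with quantile (0.0871) and cyclic loess normalization (0.139). The close relatives Rab8a and Rab13 differed by 0.03 ± 0.04 and -0.10 ± 0.09 and were not called.

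**Figure D3:**
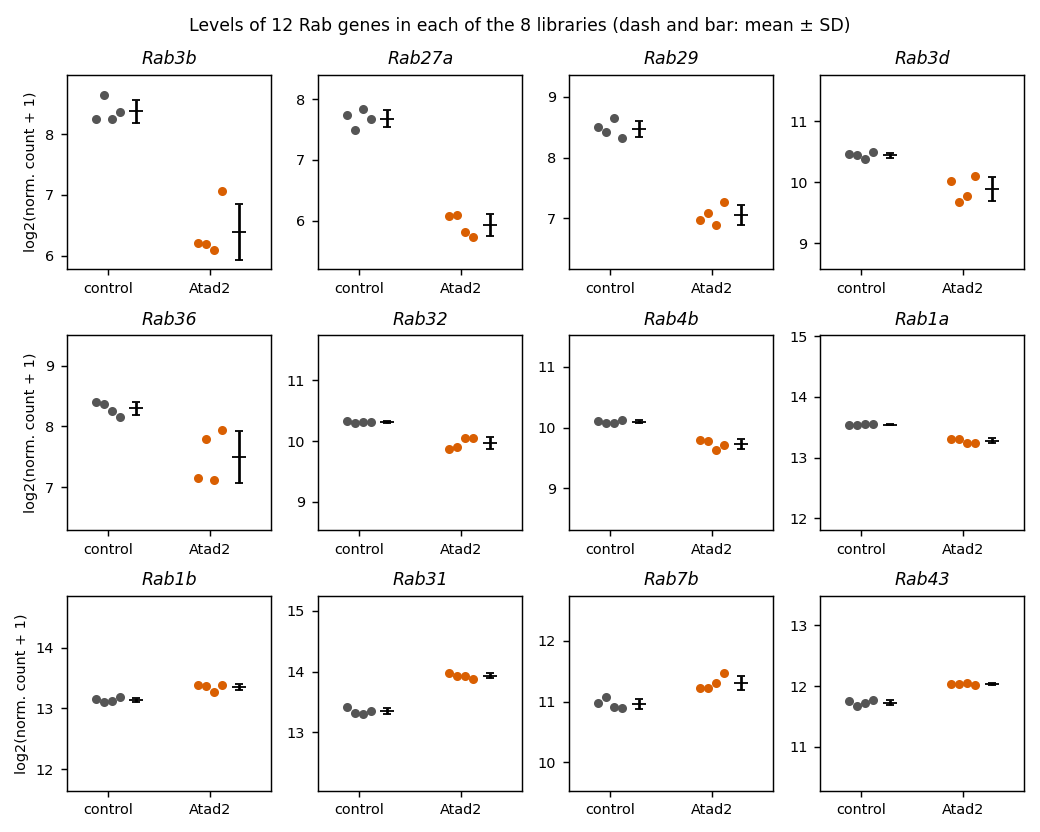
Level of 12 Rab genes in each library, as log2(normalized count + 1) on the vertical axis, for the 4 control (grey) and 4 Atad2 libraries (orange), with the mean ± SD beside the points. All panels span the same range of log2 units, and in each of the 12 the groups do not overlap. In Rab3b, 1 Atad2 library at 7.07 lies apart from the other three.

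The DNA just upstream of a RefSeq start is shown for the 2 Rab genes with the largest decreases at a level of at least 5 and for the largest increase, since these carry the main differences. Rab27a had 2 promoter windows, and the stretch comes from the first. Each stretch runs 5′ to 3′ on the gene's strand, from 250 to 11 bases before the start on GRCm38.p6, and avoids annotated exons. Capitals mark matches, on either strand, to the GC box GGGCGG or the CCAAT box, the motifs searched that occur in them. They lie at chr4:108878820-108879059 (+), chr9:73044560-73044799 (+) and chr17:65772763-65773002 (-).
Rab3b: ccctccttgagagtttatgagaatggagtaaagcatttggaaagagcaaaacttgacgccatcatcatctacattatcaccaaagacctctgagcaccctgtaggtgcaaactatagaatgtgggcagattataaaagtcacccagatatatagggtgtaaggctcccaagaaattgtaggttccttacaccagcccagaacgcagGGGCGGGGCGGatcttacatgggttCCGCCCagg
Rab27a: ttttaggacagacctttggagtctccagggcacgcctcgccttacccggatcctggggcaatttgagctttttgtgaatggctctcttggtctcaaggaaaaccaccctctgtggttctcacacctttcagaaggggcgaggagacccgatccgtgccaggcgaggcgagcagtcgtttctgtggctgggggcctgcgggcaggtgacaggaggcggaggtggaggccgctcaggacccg
Rab31: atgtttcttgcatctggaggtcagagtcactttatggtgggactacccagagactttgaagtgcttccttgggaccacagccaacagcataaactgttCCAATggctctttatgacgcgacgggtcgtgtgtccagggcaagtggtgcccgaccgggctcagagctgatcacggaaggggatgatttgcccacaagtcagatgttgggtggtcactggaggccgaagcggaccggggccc
The Rab3b stretch held 3 GC box matches, some of them overlapping, the Rab31 stretch 1 CCAAT box match and the Rab27a stretch none. Across its 2 full windows, which run to 50 bases after a start, Rab27a matched the GC box, the CCAAT box, CACGTG and CAGCTG. The full Rab31 window also matched the GC box. They held 5, 10 and 13 CpG dinucleotides in 240 bases, for Rab3b, Rab31 and Rab27a. A match describes letters and does not show a bound site.

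Among the Rab genes of late endosomes, lysosomes and lysosome-related organelles, 3 of 8 tested fell, 3 rose and 2 were not called (37.5% in each direction). For all genes the shares were 29.6% lower and 30.8% higher. The related genes Rab29, Rab32 and Rab38 were the members that fell. Rab29, which recruits the kinase LRRK2 to membranes (chromosome 1, 131867210 to 131872887), lay at 8.50, 8.42, 8.65 and 8.33 in the controls and at 6.98, 7.09, 6.90 and 7.27 after Atad2 shRNA. The gap between the groups exceeded the range within either, and the difference of -1.41 ± 0.14 was 2.67-fold (limma adjusted p = 1.7e-08).

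Rab32 and Rab38 deliver enzymes to melanosomes and related organelles. Rab32 was tightly grouped at 10.30 to 10.33 in the controls and lay at 9.87, 9.91, 10.05 and 10.05 after Atad2 shRNA (-0.35 ± 0.06, limma adjusted p = 6.4e-05). Rab38 lay at 7.03, 6.74, 7.00 and 7.19 against 6.42, 6.13, 6.66 and 6.73. Its groups touched without overlapping (-0.50 ± 0.19, limma adjusted p = 0.031). The Rab38 call was lost without any 1 of control replicates 1, 3 and 4 and Atad2 replicates 1 and 2 (limma adjusted p from 0.0594 to 0.109) and shrank to -0.06 with quantile normalization (0.821).

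Rab7, which drives the maturation of late endosomes and the fusion of autophagosomes with lysosomes, had the highest level per kilobase of all Rab genes. It lay at 14.34, 14.32, 14.32 and 14.35 in the controls and at 14.45, 14.41, 14.40 and 14.37 after Atad2 shRNA. The difference was 1.06-fold (0.08 ± 0.03, limma adjusted p = 0.023), without overlap. That call was lost without control replicate 3 (limma adjusted p = 0.0521), Atad2 replicate 1 (0.0821) or Atad2 replicate 2 (0.0521), and the sign turned with quantile (-0.03) and cyclic loess normalization (-0.04).

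Rab7b, of transport from late endosomes to the Golgi, rose from 10.98, 11.07, 10.91 and 10.90 to 11.22, 11.22, 11.31 and 11.47, with no overlap (0.34 ± 0.06, limma adjusted p = 3.6e-05). Rab24, linked to autophagy, lay at 10.67 to 10.77 in the controls and 10.90 to 11.10 after Atad2 shRNA (0.26 ± 0.05, limma adjusted p = 0.00018). In the GENCODE M21 annotation 62.4% of the Rab24 exon bases overlap Prelid1 on the opposite strand, and the strand setting of the counting is not given in the sources used here. Prelid1 stood at 14.14 ± 0.03 and 14.13 ± 0.02 and was not called. Rab9 and Rab12, of the same role group, stood within their spread, at differences of -0.01 ± 0.06 and 0.04 ± 0.04.

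The Rab genes of early and recycling endosomes came to 13 tested, of which 7 rose, 1 fell and 5 were not called. That is 53.8% higher, against 30.8% of all genes and 49.9% of those above a level of 11. Of the 13, Rab4a, Rab4b and Rab20 lay below that level, where 17.0% of all genes rose. Rab31, which works between the trans-Golgi network and endosomes (chromosome 17, 65651726 to 65772752), rose from 13.42, 13.32, 13.31 and 13.36 to 13.98, 13.93, 13.93 and 13.88. The groups lay far apart relative to their spread, and this was the smallest adjusted p of the Rab genes (0.58 ± 0.03, limma adjusted p = 4e-12). Its relative Rab22a, of endosomal recycling, rose from 11.35, 11.51, 11.40 and 11.47 to 11.76, 11.67, 11.65 and 11.61 (0.24 ± 0.05, limma adjusted p = 0.00014).

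Rab11a, which marks recycling endosomes and supplies membrane to forming autophagosomes, lay at 11.37, 11.57, 11.47 and 11.50 in the controls and at 11.71, 11.73, 11.70 and 11.79 after Atad2 shRNA. All Atad2 libraries were higher (0.26 ± 0.05, limma adjusted p = 6.4e-05). Rab14, between Golgi and endosomes, and Rab35, of recycling to the plasma membrane, rose by 0.18 ± 0.03 and 0.19 ± 0.04, also without overlap. The Rab14 call was lost with cyclic loess normalization (limma adjusted p = 0.0556).

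Increases of Rab11b (0.11 ± 0.04) and of Rab20 (0.44 ± 0.19), a weakly expressed gene at 97 to 190 reads, had overlapping groups. The Rab11b call was lost without any 1 of control replicates 1, 2 and 4 and Atad2 replicates 2 and 3 (limma adjusted p from 0.0612 to 0.116), and that of Rab20 without any 1 of control replicates 3 and 4 and Atad2 replicates 1, 2 and 3 (0.0683 to 0.144). The Rab11b difference shrank to 0.02 with quantile (limma adjusted p = 0.705) and with cyclic loess normalization (0.681). Both calls were also lost without the variance trend (0.0997 for Rab11b, 0.0558 for Rab20) and without a minimum level (0.0528 and 0.0879). Rab4b, of rapid recycling, was the member that fell. It lay at 10.10, 10.08, 10.07 and 10.13 against 9.80, 9.78, 9.63 and 9.71 (-0.36 ± 0.06, limma adjusted p = 5.6e-05). In GENCODE M21, 65.0% of its exon bases are shared with Gm21983 on the same strand, a symbol absent from the deposited values.

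The Rab5 genes, which define early endosomes, were not called. Rab5a stood at 11.65 ± 0.05 and 11.75 ± 0.06, Rab5b at 12.38 ± 0.07 and 12.44 ± 0.04, and Rab5c at 13.12 ± 0.03 and 13.15 ± 0.06 (SD, n = 4 each). Their differences ran from 0.03 to 0.10, and those of Rab5b and Rab5c reached -0.05 and -0.08 in alternative fits. Rab5a was at the threshold (limma adjusted p = 0.0525) and would be called without control replicate 3 (0.0293), Atad2 replicate 1 (0.0371) or Atad2 replicate 4 (0.0462). Rab4a and Rab21, the latter a carrier of integrins, differed by -0.09 ± 0.10 and 0.04 ± 0.04.

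The Rab genes of the ER and Golgi went in both directions, with 6 of 12 tested higher (50%), 4 lower (33.3%) and 2 not called. Over all genes 30.8% rose and 29.6% fell, and whether the group's shares differ from these was not tested. The pair Rab1a and Rab1b, which both serve traffic from the ER to the Golgi and the start of autophagosome formation, moved apart. Rab1a (chromosome 11, 20201412 to 20226856) lay at 13.53, 13.53, 13.55 and 13.55 in the controls and at 13.31, 13.31, 13.24 and 13.24 after Atad2 shRNA. Rab1b (chromosome 19, 5099207 to 5106996) lay at 13.15, 13.10, 13.12 and 13.18 against 13.38, 13.37, 13.27 and 13.38. Neither gene had overlapping groups, Rab1a fell by 0.26 on the log2 scale (SE 0.03, limma adjusted p = 3e-07) and Rab1b rose by 0.21 ± 0.03 (limma adjusted p = 1.5e-05).

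The largest decreases of this group were in weakly expressed Golgi Rab genes. Rab36 lay at 8.41, 8.37, 8.24 and 8.16 in the controls and at 7.15, 7.80, 7.12 and 7.94 after Atad2 shRNA (-0.80 ± 0.17, limma adjusted p = 0.0004). The Atad2 libraries spread widely but stayed below the controls. Rab30 lay at 7.88, 7.95, 7.88 and 8.17 against 7.43, 7.65, 7.10 and 7.23 (-0.61 ± 0.15, limma adjusted p = 0.0013), a call lost with quantile (0.128) and cyclic loess normalization (0.0763). Rab2b fell by 0.26 on the log2 scale with overlapping groups (SE 0.08), and its call was lost without the variance trend (adjusted p = 0.0511). In GENCODE M21, 59.3% of the Rab2b exon bases overlap Gm43766 on the opposite strand, a symbol absent from the deposited values.

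Rab43, of the Golgi, rose from 11.75, 11.67, 11.72 and 11.77 to 12.03, 12.04, 12.05 and 12.02 (0.30 ± 0.04, limma adjusted p = 5.3e-07). The 4 Atad2 libraries were within 0.03 of each other, above all controls. In GENCODE M21, 75.4% of its exon bases are shared with Gm45140 on the same strand, a symbol absent from the deposited values. Rab34, which positions lysosomes from the Golgi, rose from 12.59, 12.61, 12.53 and 12.60 to 12.89, 12.87, 12.83 and 12.87 (0.28 ± 0.03, limma adjusted p = 2.6e-07).

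Rab6a and Rab6b, of transport within and out of the Golgi, rose by 0.18 ± 0.03 and 0.25 ± 0.07 without overlap, and the Rab6a call was lost with quantile normalization (limma adjusted p = 0.0559). Rab2a, at 13.01 ± 0.03 and 13.09 ± 0.05, passed narrowly (0.08 ± 0.03, limma adjusted p = 0.0487). That call was lost without any 1 of control replicates 1, 3 and 4 and Atad2 replicates 1, 2 and 3 (0.0837 to 0.145), and the sign turned with quantile and cyclic loess normalization (-0.02 in both). Rab33b, which binds the autophagy protein ATG16L1, stood at 9.96 ± 0.07 and 10.01 ± 0.04, and Rab18, of the ER and lipid droplets, at 12.13 ± 0.05 and 12.21 ± 0.03. Neither was called.

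In the remaining group, 2 of 7 tested genes fell (28.6%), 0 rose and 5 were not called (limma). For all genes the shares were 29.6% lower and 30.8% higher. Rab23, a negative regulator of Hedgehog signalling, lay at 11.81, 11.79, 11.80 and 11.76 against 11.56, 11.53, 11.56 and 11.51 (-0.25 ± 0.04, limma adjusted p = 9.1e-06). Rab28, a Rab of the cilium, lay at 10.91, 10.84, 10.87 and 10.79 against 10.57, 10.53, 10.39 and 10.65 (-0.32 ± 0.06, limma adjusted p = 7.2e-05). Both were lower in every Atad2 library. Rab40c, a subunit of a ubiquitin ligase, differed by 0.10 ± 0.06. Rab42, Rab39b, Rab40b and Rab44 were weak, at 6 to 151 reads per library, and Rab42 was the nearest to a call (-0.63 ± 0.28, limma adjusted p = 0.054).

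The 9 Rab genes below the minimum level were Rab9b, Rab15, Rab17, Rab19, Rab25, Rab26, Rab33a, Rab37 and Rab39. Rab15 and Rab39 had 0 reads in all 8 libraries. The other seven had at most 14 reads in any library and were not tested. Rab25 and Rab17 are Rab genes of epithelial cells.

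Levels of different genes were set side by side as normalized counts per kilobase of annotated exon (GENCODE M21). In the control libraries Rab7 stood highest at 7895 ± 89.7 (SD, n = 4), followed by Rab10 at 4802 ± 111. Rab5c at 4045 ± 81.7, Rab1b at 3966 ± 101 and Rab2a at 3880 ± 78.8 came next, with neighbouring values within about their SD. Rab1a followed at 3130 ± 22.2 and Rab31 at 2744 ± 90.9. The decreases in the secretory genes took place far below these, with Rab3b at 94.5 ± 12.8 against 24.5 ± 8.89 in the Atad2 libraries and Rab27a at 52.8 ± 5.22 against 15.5 ± 1.99.

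Summed per kilobase over all 59 Rab genes, the level was 52651 ± 372 in the controls and 56803 ± 748 after Atad2 shRNA, a difference of 7.89%. Such sums follow the genes of highest level. Of all 1717 genes with a mean level above 13, 57.8% rose and 20.2% fell, with a median difference of 0.11. The sums are given with the deposited normalization only, and the signs of Rab7 and Rab2a turned with quantile and cyclic loess normalization. The early and recycling endosome group differed by 13.8%, the ER and Golgi group by 7.28%, the secretion group by 7.47% and the late endosome group by 3.96%. The remaining group was at -11.3%. In the secretion group, where 5 genes fell, Rab10 alone made up 4802 of the 7348 in the control libraries, so the sum followed Rab10 and not the Rab3 and Rab27 genes.

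Within-library ratios of paralogs, which do not depend on a library's scaling, were compared for 19 of 22 listed pairs, those with both genes tested. For 9 pairs the ratios of the groups did not overlap, each with an exact two-sided permutation p = 0.0286, the smallest that 4 against 4 libraries can give. Taken singly, 53.5% of all genes tested had no overlap. Ratios of other gene pairs are not given here, so whether 9 of 19 is unusual was not tested. Adjusted over the 19 pairs the exact permutation p is 0.0603, so 0 pairs passed after adjustment. The log2 ratio of Rab1a to Rab1b was 0.40 ± 0.03 in the controls and -0.08 ± 0.05 after Atad2 shRNA. Per kilobase, Rab1a held 44.1% ± 0.577 of the sum of both genes in the controls and 36.2% ± 0.768 after Atad2 shRNA, while that sum, 7096 ± 111 and 7212 ± 212, had overlapping values.

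Rab27a held 26.4% ± 3.25 of the Rab27a and Rab27b sum in the controls and 10.96% ± 1.77 after Atad2 shRNA, and the sum itself went from 200.4 ± 7.64 to 142 ± 5.49 per kilobase. Rab3a held 73.3% ± 2.85 of the Rab3a and Rab3b sum in the controls and 90.7% ± 2.85 after Atad2 shRNA. Its own level was not called, so the shift followed Rab3b. For Rab22a and Rab31, which both rose, Rab22a held 12.3% ± 0.796 in the controls and 9.95% ± 0.146 after Atad2 shRNA. The other pairs without overlap were Rab3a with Rab3d, Rab7 with Rab7b, Rab10 with Rab13, Rab21 with Rab22a and Rab30 with Rab43. Ratios among Rab5a, Rab5b and Rab5c overlapped, with differences of 0.02 to 0.07 on the log2 scale, as did those of Rab6a with Rab6b (-0.07) and Rab32 with Rab38 (0.16).

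**Figure D4:**
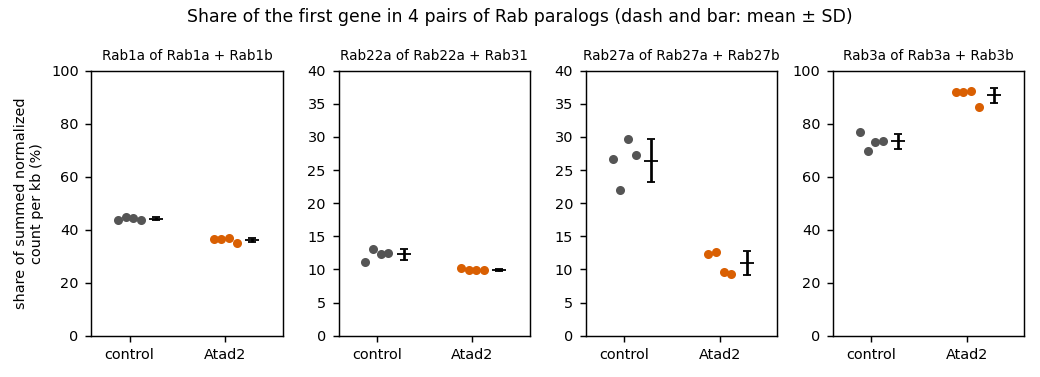
Share of the first gene in the summed normalized count per kilobase of 2 paralogs (vertical axis, percent), in each control (grey) and Atad2 library (orange), with the mean ± SD beside the points. The vertical range is 0 to 100% or 0 to 40%. In all 4 pairs shown the groups do not overlap, with the Rab1a share at 44.1% and 36.2% and the Rab27a share at 26.4% and 10.96%.

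The genes that load, switch and read Rab proteins were taken from a list of 178 symbols, all in the table and 167 of them tested. Of these 45 rose, 56 fell and 66 were not called, or 26.9% higher and 33.5% lower against the 30.8% and 29.6% of all genes. Their median difference was -0.02. At a 2-fold change or more, 0 were higher and 8 lower (4.79%), against 2.73% and 9.46% of all genes.

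Of 14 genes of prenylation, escort and GDI, 5 rose (35.7%) and 2 fell (14.3%), against 30.8% and 29.6% of all genes. Rabggtb, the catalytic subunit of the Rab geranylgeranyl transferase, rose by 0.34 ± 0.04, Rabac1, a membrane factor that releases Rab proteins from GDI, by 0.36 ± 0.04, and Yipf6, a Golgi membrane protein, by 0.25 ± 0.05. Rabif fell by 0.34 on the log2 scale (SE 0.06) and Yipf1 by 0.31 (SE 0.08).

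Of 51 tested GEF genes, 15 rose (29.4%) and 17 fell (33.3%), near the 30.8% and 29.6% of all genes. The Rab5 family exchange factor gene Rin2 rose from 11.33 ± 0.09 to 12.31 ± 0.08 (0.98 ± 0.05), while its paralog Rin3, chosen after its values were seen, fell from 12.09 ± 0.01 to 11.44 ± 0.14 (-0.64 ± 0.05). Als2cl, a relative of the Rab5 exchange factor alsin, had 309 to 354 reads in each control and 18 to 45 after Atad2 shRNA, and fell (-3.34 ± 0.22). Dennd2a and Sbf1 rose by 0.57 ± 0.04 and 0.46 ± 0.03, and Trappc6a, of the TRAPP complexes, and Dennd3 fell with differences of -0.97 ± 0.11 and -0.89 ± 0.10. The limma adjusted p of these genes was at most 1.7e-07.

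Of 39 tested GAP genes, 11 rose (28.2%) and 9 fell (23.1%), against 30.8% and 29.6% of all genes. Tbc1d12 rose by 0.98 ± 0.08, Tbc1d1, a GAP on the path from insulin and muscle contraction to GLUT4, by 0.32 ± 0.04, and Rab3gap2, of the Rab3 GAP complex, by 0.31 ± 0.03. Tbc1d2 changed by -1.62 ± 0.10, Sgsm1 by -1.03 ± 0.10 and Tbc1d19 by -0.50 ± 0.06. Tbc1d4, the GAP known for Rab10 and insulin-stimulated GLUT4 delivery, was chosen after its values were seen and rose by 0.21 ± 0.05.

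Of 58 tested effector genes, 13 rose (22.4%) and 25 fell (43.1%), against 30.8% and 29.6% of all genes, a difference that was not tested. Mlph (melanophilin), which links Rab27a to the motor myosin Va, fell from 8.26 ± 0.13 to 6.46 ± 0.13 (-1.80 ± 0.15, limma adjusted p = 1.8e-09), a decrease close in size to that of Rab27a. The gene of that motor, Myo5a, was chosen after its values were seen and rose by 0.34 ± 0.03. Of the synaptotagmin-like effectors of Rab27, Sytl2 rose by 0.53 ± 0.04, and Sytl5, also chosen after its values were seen, changed by -0.65 ± 0.06. Plekhm2, which couples lysosomes to kinesin, and Rufy3 rose by 0.70 ± 0.05 and 0.49 ± 0.06. Exoc6, of the exocyst, and Ehbp1 fell with differences of -1.04 ± 0.08 and -0.67 ± 0.06.

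Of the 5 genes of kinases and phosphatases that act on Rab proteins, 3 fell and 1 rose. These shares, 60% and 20%, stand beside 29.6% and 30.8% of all genes. Lrrk2, whose product phosphorylates several Rab proteins and is recruited by Rab29, stood at 13.02 ± 0.05 and 12.77 ± 0.06 (-0.25 ± 0.04), and Lrrk1 changed by -0.21 ± 0.03. The opposing phosphatase gene Ppm1h rose by 0.45 ± 0.16 (limma adjusted p = 0.018), and Ppm1m fell by 0.28 on the log2 scale (SE 0.05). The Ppm1h call was lost without control replicate 1 (limma adjusted p = 0.0767) or Atad2 replicate 1 (0.0588).

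RefSeq promoter windows, from 250 bases before to 50 after a start on GRCm38.p6, were at hand for 48 of the 59 Rab genes (60 windows). The GC box GGGCGG occurred on either strand in 68.3% of these windows, against 35.7% of all 32851 windows, which also belong to non-coding genes. It was found in 13 of 16 genes that rose, 9 of 11 that fell and 11 of 14 not called. The E-box CACGTG, the core of the site bound by MYC and by the lysosomal factor TFEB, occurred in 10% of Rab windows and 7.15% of all, at Rab20, Rab21, Rab23, Rab24, Rab27a and Rab5a. The E-box CAGCTG, which MyoD can bind, occurred in 23.3% and 16.3%, and the CCAAT box in 43.3% and 37.4%. The AP-1 motif TGACTCA occurred in 5% and 5.20% and the CRE TGACGTCA in 3.33% and 1.79%. These are descriptions of the windows, in which motifs may overlap.

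Markers of other cell states moved with the groups. The summed normalized count of 7 myotube markers was 726 to 928 in the controls and 4658 to 5795 after Atad2 shRNA, and that of 6 myoblast markers 42772 to 45852 and 46952 to 51890. The myotube sum after Atad2 shRNA was mostly Ttn (4.00 ± 0.07). Myog, Myh3, Tmem8c and Tnnt3 also rose. Acta1 was not called (-0.09 ± 0.12), and Ckm, at no more than 8 reads, was not tested. The myoblast sum was mostly Des, which rose with Myod1 (0.38 ± 0.03 and 0.25 ± 0.04), while the other four fell, with differences of -1.28 for Myf5, -0.96 for Cdh15, -3.27 for Pax7 and -0.19 for Vcam1. Of 6 macrophage markers the sum was 248 to 305 and 549 to 678, with Adgre1 at 0 reads throughout, Ptprc at no more than 4 reads and most of the sum from Cd68. The sums were 677 to 893 and 1002 to 1305 for 4 neuron markers, mostly Tubb3, and 47.0 to 83.5 and 2.87 to 14.6 for 4 epithelial markers, mostly Cdh1. For 4 adipocyte markers they were 33.1 to 40.4 and 3.83 to 19.3, mostly Fabp4, which fell (-1.80 ± 0.45, limma adjusted p = 0.0016), with Adipoq at 0 reads. For 4 endothelial markers they overlapped, at 14.1 to 31.0 and 11.6 to 35.6, with Tie1 at 0 reads. The part of these markers in the Rab results was not tested.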

How the data were processed

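RNA from 8 libraries was sequenced on an Illumina NovaSeq with a second-strand step that keeps strand, per the labels' protocols. The submitters' processing notes list build mm10 and, in no stated order, HTSeq 0.13.5, DESeq2 without a version, bcl2fastq 2.20 and SAMtools 1.1. The aligner, annotation and strand setting were not stated there. The values deposited by the authors are on a log2 scale, log2(normalized count + 1), with 3 decimals and 1 size factor for each library. Converted back, 100% of values up to 50 reads were whole multiples of 1 step per library within 0.1 reads, and reads were recovered with it. Higher counts are approximate.

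Genes with a mean level above 3 were fitted with limma 3.58.1 in R 4.3.3 (lmFit, eBayes with trend, two-sided, no covariates). Paralog ratios were tested by exact permutation over 70 assignments. Exon lengths and overlaps came from GENCODE M21, promoter windows from RefSeq. Values in every library are given by a rule: per role, up to 4 called genes without overlap and with a mean level of at least 5, by size, the called gene of the smallest mean level (Rab3c), then genes fixed for autophagy and GLUT4 traffic and, per regulator class, up to 3 in each direction. The members and lists were chosen with earlier results of these data known. The fit was tested on simulated data of 15061 genes: of 50 genes each changed by 0.25, 0.5, 1 and 2 on the log2 scale, 50%, 98%, 100% and 100% were recovered, and 4.92% of 183 calls were unchanged genes. Only these genes were changed, all with a mean normalized count above 50. Every gene had the same spread beyond counting error, and libraries differed only in depth. In the data 60.4% of genes were called, so these rates need not hold there, nor for weak genes.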

Additional observations from a re-analysis of the deposited data

Results flagged for a closer look

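Single libraries lay apart from the other three of their group in 4 of 100 gene and group combinations, where chance flags about 1 in 20. Rab3b was at 7.07 in Atad2 replicate 4 and at 6.08 to 6.21 in the other Atad2 libraries, a gap that is 0.872 of the whole range. Rab1b was at 13.27 in Atad2 replicate 3, against 13.37 to 13.38. Rab2a was at 13.06 in control replicate 2, above the other three by 0.887 of the range. Rab42 was at 6.54 in control replicate 1, against 5.83 to 5.94.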

How the results depend on the processing

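Of the 18 increases and 15 decreases among the Rab genes, 11 and 11 kept their call and direction in all 19 alternative fits: a minimum mean of 5 or none, an added 8 in the log, median centring, quantile and cyclic loess normalization, no variance trend, a robust prior, library weights, limma-voom on recovered reads, the replicate block and leaving out each library. Quantile normalization gave 13 higher and 13 lower, and cyclic loess 13 and 12. Leaving out a library gave 14 to 19 higher and 14 to 16 lower. The replicate block gave 19 higher and 15 lower. Same-numbered libraries of the groups did not deviate together (correlations from -0.02 to 0.03), and not every library correlated best with its own number. The labels do not say what a shared number means, and correlations near 0 cannot show that no culture or day was shared. An adjusted p under 0.01 left 13 and 12. With a 1.5-fold minimum, 0 Rab genes were higher and 6 lower, 3 and 14 of the regulators and effectors, and 802 and 2066 of all genes, because the alternative asks for a larger change. Signs turned in at least 1 alternative for 2 of the 18 increases, Rab2a (-0.0233 with quantile and with cyclic loess) and Rab7 (-0.0316 and -0.0362), for 0 of the 15 decreases and for 13 of the 17 Rab genes not called. Among the latter were Rab8a (-0.0486 with both) and Rab13 (0.0134 with quantile), and the others were Rab3a, Rab4a, Rab5b, Rab5c, Rab9, Rab12, Rab18, Rab21, Rab39b, Rab40b and Rab44. The cause was not tested. Ratios without overlap numbered 9 to 12 of 19 when a library was left out. Leaving out a library cannot create an overlap, so this count could not fall below 9 and does not test the ratios. Depth limits the genes under 50 reads, such as Rab3c and Rab44.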
